A study of Oryza sativa with 12 samples.

Results

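The SnRK2 kinases of rice (SAPK1 to SAPK10) were followed in anthers of a cold-tolerant and a cold-susceptible cultivar, taken after a cold or a control night. The members were the 10 loci known as SAPK1 to SAPK10, found by locus identifier among the 55985 gene models of the deposited table, and all 10 counted as detected, with a group mean of 1 RPKM or more. The values are called RPKM, a read number scaled to the length of the gene model and to the mapped reads of the library. Each column sums to about 1000000, which RPKM values do not do unless they are rescaled. The study states a normalization by total reads but gives no further detail of it. Levels of different genes are set beside each other only on the footing that the scaling to gene length was kept, whereas ratios of 1 gene between groups do not need it. ERY is Erythroceros Hokkaido, which the labels call tolerant, and S.AND is Sant'Andrea, which they call susceptible. Plants of each cultivar stood for 1 night at 8 °C (COLD) or at 24 °C (CONTROL), and anthers at the post-meiotic stage were dissected in the morning, with 3 samples in each of the 4 groups and 12 samples in all. Each sample pooled anthers of several plants, and anthers of normal anatomy were chosen. The cultivars differ in their whole genetic background, so a difference between them is one between 2 lines, and the labels name no transgene or mutation in either.

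The table gives the authors' mean of each group and no value per sample. Each RPKM below is therefore the authors' mean, with no SD. For the depth of the samples the study gives only a minimum number of reads, not a value for each. These means allow no test of a difference between temperatures or between cultivars, and the authors' own fold change and FDR columns were not used here. A difference was called at a ratio of means of at least 2-fold and set beside the share of all genes past the same ratio. Of the gene models, 25497 were detected in this sense, and the 10 most abundant genes took 8.66% to 11.0% of a column. Anther transcripts were present as the label says: OsMADS16 (LOC_Os06g49840), a floral gene of stamen identity, had means from 1177 to 1685 RPKM, and the tapetum gene OsC6 (LOC_Os11g37280) from 19829 to 25952 RPKM. The 3 pistil or ovule markers were low but not at 0, summing to 14.9 RPKM (CONTROL) and 23.3 RPKM (COLD) for ERY and to 9.43 and 4.30 RPKM for S.AND. The tapetum markers OsC6, TDR and EAT1 all had lower means in COLD in both cultivars. Their log2 ratios ran from -1.05 to -0.36 for ERY and from -0.83 to -0.31 for S.AND. WDA1 (LOC_Os10g33250), listed with them but a gene of wax and cuticle in the anther wall, gave -0.12 and -0.02. In such bulk samples, fewer cells of a type and less RNA per cell cannot be told apart.

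SnRK2 kinases are plant-specific serine/threonine kinases of stress and abscisic acid (ABA) signalling. In the absence of ABA, protein phosphatases 2C of clade A keep the members that respond to ABA dephosphorylated and inactive. ABA bound to receptors of the PYL/RCAR family blocks these phosphatases, and the released kinases phosphorylate bZIP transcription factors that switch on protective genes such as the RAB16 dehydrins. The rice family falls into subclass I (SAPK4 to SAPK7), subclass II (SAPK1 to SAPK3) and subclass III (SAPK8 to SAPK10). Osmotic stress is known to activate every member in rice cells, while ABA also activates subclass III. This control acts on the protein, so a transcript level is not a measure of kinase activity.

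SAPK8 and SAPK4 had the highest control means in both cultivars, together 43.2% of the family sum for ERY and 38.6% for S.AND. SAPK8 (LOC_Os03g55600, chromosome 3), a subclass III kinase that phosphorylates a calcium channel in rice under chilling, was the most abundant member in all 4 groups, with means of 88.4 RPKM (CONTROL) and 97.9 RPKM (COLD) for ERY, and 83.8 and 102.8 RPKM for S.AND. It lay above 90.8% to 92.1% of the genes at or above 1 RPKM in the same group. SAPK4 (LOC_Os01g64970, chromosome 1), of subclass I and known from salt tolerance in rice, came next in the controls, at 70.6 RPKM for ERY and 60.2 RPKM for S.AND, and reached 80.4 and 77.0 RPKM in COLD. At the other end stood SAPK10 (LOC_Os03g41460, chromosome 3), of subclass III, at 6.74 RPKM (CONTROL) and 7.81 RPKM (COLD) for ERY, and 7.06 and 8.32 RPKM for S.AND. Its level was the lowest of the family in 3 groups, and SAPK3 lay below it in S.AND COLD. The order in ERY CONTROL was SAPK8, SAPK4, SAPK7, SAPK6, SAPK2, SAPK9, SAPK1, SAPK3, SAPK5 and SAPK10. In S.AND CONTROL it differed at 2 places, with SAPK1 above SAPK9 and SAPK5 above SAPK3. Since no spread between samples is given, neighbours in these orders cannot be told apart.

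**Figure D1:**
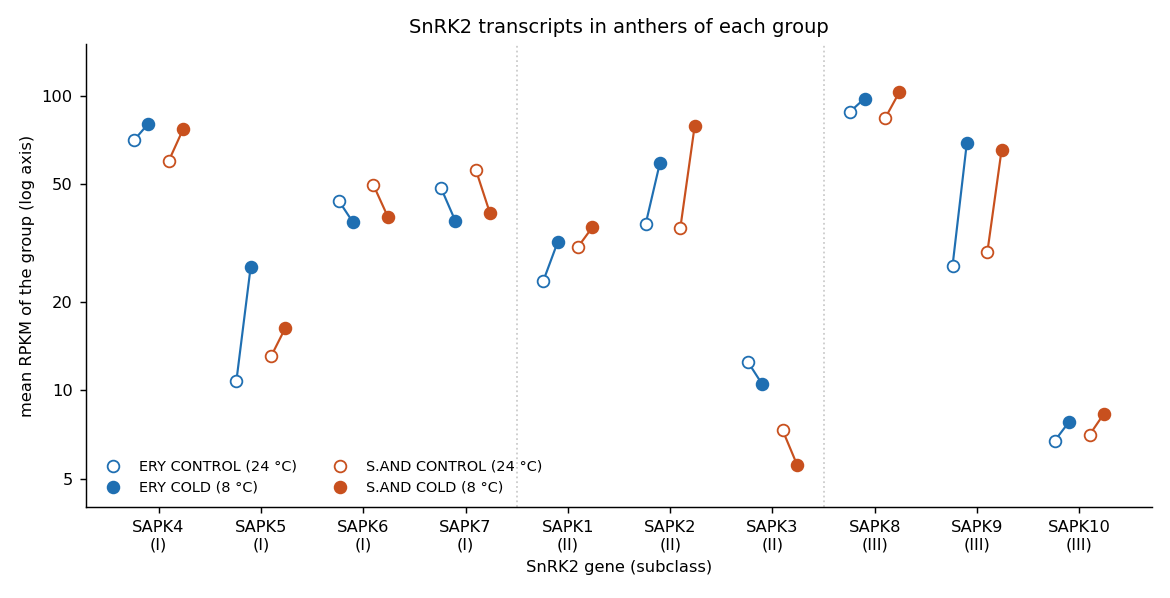
Mean RPKM of each SnRK2 gene (log axis) in the 4 groups; open points are CONTROL and filled points COLD, blue for ERY and orange for S.AND, and each point is the authors' mean of 3 samples. The COLD points of SAPK9 sit at 69.2 RPKM for ERY and 65.7 for S.AND, above controls at 26.4 and 29.4, whereas the COLD points of SAPK5 sit at 26.2 and 16.3 above controls at 10.7 and 13.0.

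SAPK9 had the largest ratio of COLD to CONTROL in each cultivar, although in S.AND it lay only just above that of SAPK2 (2.22). SAPK9 (LOC_Os12g39630, chromosome 12), a subclass III kinase known from drought tolerance in rice, averaged 26.4 RPKM after the control night and 69.2 RPKM after the cold night for ERY, and 29.4 and 65.7 RPKM for S.AND. These means gave a ratio of 2.62 in ERY and 2.23 in S.AND, a log2 ratio of 1.39 and 1.16. The cultivars were close to each other at both temperatures, with S.AND at 1.11 times the ERY level in CONTROL and 0.948 times in COLD. In the order of the family SAPK9 took the sixth place in CONTROL and the third in COLD in ERY, and the seventh and the fourth in S.AND. Its log2 ratio was higher than that of 94.9% of the detected genes for ERY and 95.6% for S.AND.

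SAPK2 was also higher in COLD in both cultivars, with the wider step in S.AND. SAPK2 (LOC_Os07g42940, chromosome 7), a subclass II kinase with a known part in ABA responses of rice seedlings, averaged 36.6 RPKM in CONTROL and 59.1 RPKM in COLD for ERY. For S.AND the means were 35.6 and 79.1 RPKM. The controls therefore differed by little (a ratio of 0.975), while the COLD mean was 1.34 times higher in S.AND. The ratio of COLD to CONTROL was 1.62 in ERY and 2.22 in S.AND, so SAPK2 passed the 2-fold limit in S.AND and not in ERY. In S.AND COLD it was the second most abundant member, above SAPK4.

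SAPK5 showed the reverse, with the wider step in ERY. SAPK5 (LOC_Os04g59450, chromosome 4), of subclass I, had a mean of 10.7 RPKM after the control night and 26.2 RPKM after the cold night for ERY, against 13.0 and 16.3 RPKM for S.AND. The ratio of COLD to CONTROL was 2.45 in ERY and 1.25 in S.AND. Whereas S.AND had 1.22 times the ERY level in CONTROL, it had 0.622 times that level in COLD. The pistil or ovule markers also had higher ratios of COLD to CONTROL in ERY, but in S.AND they were lower in COLD whereas SAPK5 was higher. Of the 3, 2 reached 1 RPKM in at least 2 groups, with log2 ratios of 0.19 and 2.01 for ERY and -1.12 and -1.23 for S.AND. The third did so in ERY COLD alone, at 1.89 RPKM, and is left out here, although the sums above include it. The 2 lemma or palea and the 2 green tissue markers were higher in COLD for ERY. In S.AND, 1 of each pair was higher and 1 lower. The part of these markers in the SAPK5 values was not tested.

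In each cultivar 2 of the 10 members were at least 2-fold higher in COLD and 0 were at least 2-fold lower. They were SAPK9 and SAPK5 in ERY and SAPK9 and SAPK2 in S.AND. Among all detected genes, 9.20% were at least 2-fold higher and 7.09% at least 2-fold lower in ERY COLD, and 5.87% and 9.85% in S.AND COLD. Among the 13198 genes whose mean over the groups lay within the range of the members, the shares were smaller. They were 5.99% and 3.56% in ERY COLD, and 4.29% and 4.78% in S.AND COLD. Over the 10 members the median log2 ratio was 0.20 for ERY and 0.27 for S.AND, beside 0.04 and 0.00 over all detected genes. Counted by sign alone, 7 members were higher and 3 lower in COLD in each cultivar, and these were the same genes in both. Of all detected genes, 53.1% were higher in COLD in ERY and 49.96% in S.AND.

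**Figure D2:**
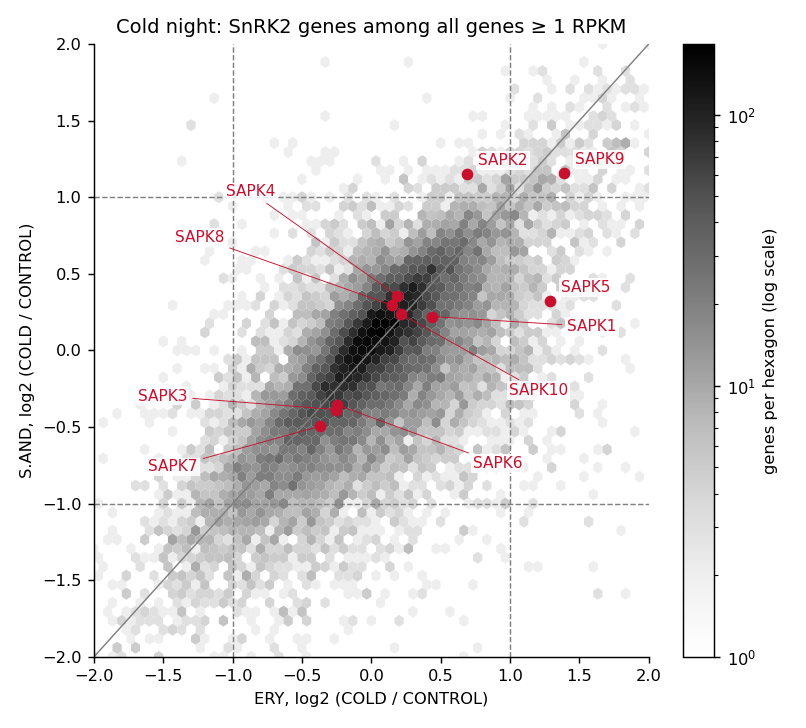
Log2 ratio of COLD to CONTROL in S.AND against that in ERY, for the 10 SnRK2 genes (red) over all detected genes (grey hexagons, shaded on a log scale; genes beyond the axes are left out). Dashed lines mark a 2-fold ratio and the diagonal marks equal ratios: SAPK9 lies past 2-fold on both axes, SAPK5 on the ERY axis and SAPK2 on the S.AND axis, and the other 7 members lie inside both limits.

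The remaining 7 members had COLD means of 0.709 to 1.35 times their control level. SAPK1 (LOC_Os03g27280, chromosome 3), of subclass II, had means of 23.5 RPKM (CONTROL) and 31.8 RPKM (COLD) for ERY, and 30.7 and 35.8 RPKM for S.AND. The steps of SAPK4 and SAPK8 had the same sign in both cultivars and were a little wider in S.AND, with log2 ratios of 0.19 and 0.15 in ERY and 0.36 and 0.30 in S.AND. SAPK10 gave 0.21 in ERY and 0.24 in S.AND.

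The 3 members with lower means in COLD were SAPK3, SAPK6 and SAPK7. The tapetum markers were lower in COLD as well, and their part in these values was not tested. SAPK7 (LOC_Os04g35240, chromosome 4), of subclass I, averaged 48.7 RPKM (CONTROL) and 37.6 RPKM (COLD) for ERY, and 56.2 and 39.8 RPKM for S.AND. SAPK6 (LOC_Os02g34600, chromosome 2), a subclass I kinase that phosphorylates an ABA-type bZIP factor in rice, averaged 44.1 and 37.2 RPKM for ERY and 49.8 and 38.9 RPKM for S.AND. SAPK6 and SAPK7 were close to each other in every group, and the shape of their 4 means was among the most alike of all pairs of members. Once each gene's own mean log2 RPKM was removed, the distance over the 4 groups was 0.14 for SAPK6 and SAPK7 and 0.10 for SAPK8 and SAPK10, the smallest of the pairs, and 1.82 for SAPK3 and SAPK9, the largest.

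SAPK3 was the member in which the cultivars stood farthest apart as a ratio. SAPK3 (LOC_Os10g41490, chromosome 10), of subclass II, averaged 12.5 RPKM (CONTROL) and 10.5 RPKM (COLD) for ERY, but 7.30 and 5.58 RPKM for S.AND. S.AND thus had 0.585 times the ERY level in CONTROL and 0.533 times in COLD, a log2 ratio of -0.77 and -0.91. The ratio of COLD to CONTROL was 0.840 in ERY and 0.765 in S.AND, so S.AND had the lower mean after either night. As a difference in RPKM the gap of SAPK3 was small, -5.17 in CONTROL and -4.89 in COLD (S.AND minus ERY), and the widest gaps were those of SAPK4 in CONTROL (-10.5) and SAPK2 in COLD (19.9). Of the 10 members, 0 were at least 2-fold apart between the cultivars in CONTROL and 0 in COLD. Of all detected genes, 11.5% passed that limit towards S.AND and 8.04% towards ERY in CONTROL, and 7.70% and 7.44% in COLD. These shares were smaller among the 13198 genes whose mean over the groups lay within the range of the members. There they were 4.97% and 3.81% in CONTROL, and 2.92% and 3.18% in COLD.

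**Figure D3:**
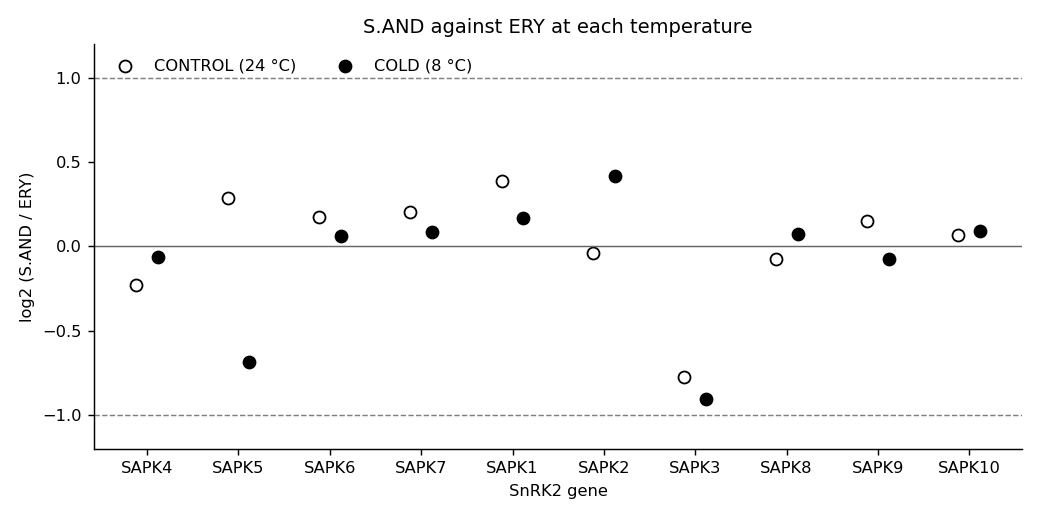
Log2 ratio of S.AND to ERY for each SnRK2 gene, in CONTROL (open points) and COLD (filled points), from the authors' group means; dashed lines mark a 2-fold ratio. SAPK3 is lower in S.AND at both temperatures (-0.77 and -0.91), SAPK5 goes from 0.28 to -0.68 and SAPK2 from -0.04 to 0.42.

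The difference between the cultivars in their step from CONTROL to COLD is the question of the design, and it could only be described. Taken as the log2 ratio in S.AND minus that in ERY, it was -0.97 for SAPK5 and 0.46 for SAPK2, the lowest and the highest of the family, and lay between -0.23 and 0.17 for the other 8 members. None of the 10 members reached 1 either way, against 10.9% of the detected genes with a ratio in both cultivars. SAPK5 was just short of that limit. Over all these genes the percentiles 5 and 95 of the difference were -1.27 and 0.71, and the 10 members lay inside them. Among the 13198 genes whose mean over the groups lay within the range of the members the spread was narrower, with percentiles of -0.74 and 0.44, and 2.73% at -1 or below and 0.850% at 1 or above. SAPK5 lay outside this narrower range and SAPK2 only just outside it, on the other side.

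Summed over the family, S.AND had 1.01 times the ERY level in CONTROL and 1.03 times in COLD. The 10 genes together came to 368 RPKM after the control night and 458 RPKM after the cold night for ERY, and to 373 and 469 RPKM for S.AND. The sum was 1.24 times higher in COLD in ERY and 1.26 times in S.AND. The largest increment was that of SAPK9 in ERY and of SAPK2 in S.AND. In ERY, SAPK9 was 42.8 RPKM higher in COLD, SAPK2 22.6 and SAPK5 15.5, while in S.AND SAPK2 was 43.4 RPKM higher, SAPK9 36.3 and SAPK8 19.0, with SAPK5 at 3.25.

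The shares of the subclasses in the family sum differed between CONTROL and COLD in the same direction in both cultivars. Subclass III, the ABA-activated kinases, made up 33.0% of the family sum after the control night and 38.2% after the cold night for ERY, and 32.2% and 37.7% for S.AND. SAPK9 alone carried this difference, since SAPK8 and SAPK10 together had 25.8% and 23.1% for ERY, and 24.4% and 23.7% for S.AND. Subclass I had 47.3% and 39.6% in ERY, and 48.0% and 36.7% in S.AND. Subclass II had 19.7% and 22.1% in ERY, and 19.7% and 25.7% in S.AND. In RPKM, the sum of subclass I moved little, 174 against 181 for ERY and 179 against 172 for S.AND, since the higher SAPK4 and SAPK5 and the lower SAPK6 and SAPK7 nearly balanced.

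**Figure D4:**
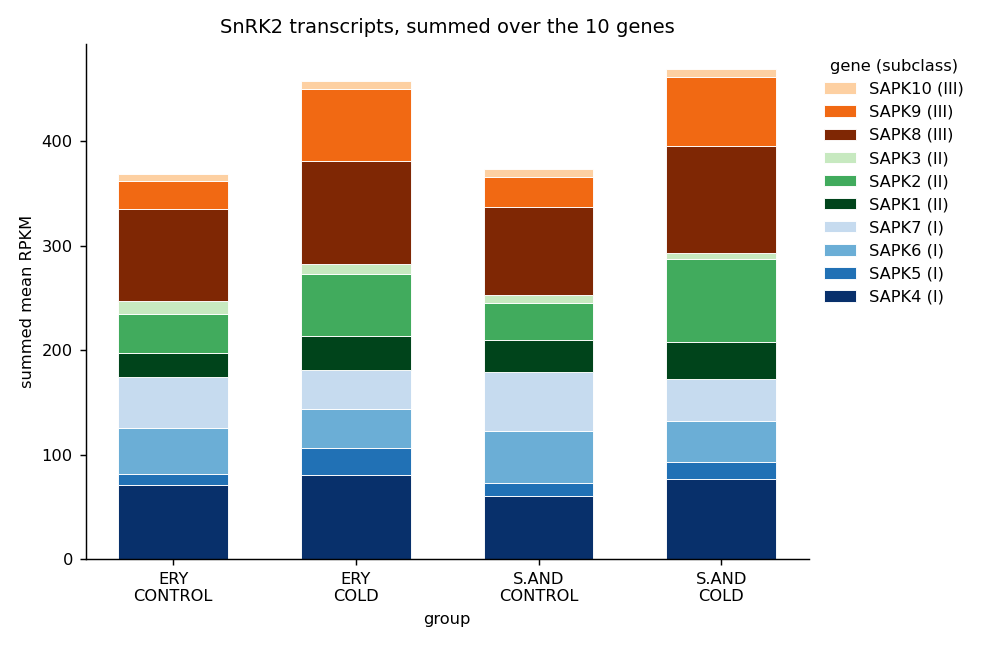
Summed mean RPKM of the 10 SnRK2 genes in each group, stacked by gene, with blues for subclass I, greens for subclass II and oranges for subclass III. The sums are 368 and 458 RPKM in ERY and 373 and 469 RPKM in S.AND for CONTROL and COLD, and the share of SAPK9 goes from 7.18% to 15.1% in ERY and from 7.88% to 14.0% in S.AND.

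Genes that act around the kinases were taken from lists drawn from general knowledge of the ABA pathway and counted by the same 2-fold limit. A few loci counted as detected through 1 group alone, which by itself favours a wide ratio, so the counts below were taken over loci at or above 1 RPKM in at least 2 groups, a filter chosen after seeing the data. Under it, 8.44% of all genes were at least 2-fold higher and 6.01% at least 2-fold lower in ERY COLD, and 5.40% and 8.45% in S.AND COLD. Upstream, 6 of 8 loci listed as PYL/RCAR receptors passed, of which 2 were at least 2-fold higher in COLD in ERY and 1 in S.AND, and 0 lower in either. LOC_Os05g12260 averaged 21.8 RPKM (CONTROL) and 45.0 RPKM (COLD) for ERY, and 23.2 and 56.5 RPKM for S.AND. LOC_Os03g18600 stood at 45.9 RPKM in the ERY control and 40.1 RPKM in the S.AND control, and its COLD means were 2.18 and 1.82 times as high. LOC_Os06g36670 reached 1.02 RPKM in the S.AND control alone and is not counted.

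Clade A phosphatases switch the kinases off. Of 9 listed loci, which all passed, 2 were at least 2-fold higher in ERY COLD and 0 lower, and 0 were higher and 1 lower in S.AND COLD. The 1 of 9 in S.AND is near the share of all genes. LOC_Os09g15670 had log2 ratios of 2.79 for ERY and 0.89 for S.AND, and LOC_Os03g16170 of 2.27 and 0.25. LOC_Os05g49730 averaged 4.72 and 3.20 RPKM for ERY and 3.88 and 1.07 RPKM for S.AND. By sign, 7 of the 9 were higher and 2 lower in COLD in ERY, and 4 were higher and 5 lower in S.AND. Sums over the list therefore do not stand for each locus. Summed over the 9 loci, the phosphatases came to 286 RPKM (CONTROL) and 476 RPKM (COLD) for ERY, and 330 and 283 RPKM for S.AND. Most of the ERY rise lay in 2 loci, LOC_Os03g16170 (22.6 and 108.8 RPKM) and LOC_Os09g15670 (10.1 and 70.4 RPKM). Both were higher in S.AND COLD too, and the lower S.AND sum came from other loci, such as LOC_Os01g62760 (111.1 and 74.0 RPKM). The family sum of the kinases was thus 1.24 times and 1.26 times higher in COLD in ERY and S.AND, while the phosphatase sum was higher in COLD in ERY and lower in COLD in S.AND. The sum of the pistil or ovule markers, given above, moved the same way, and its part in these values was not tested.

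Downstream, 5 of 7 bZIP factors listed passed, with 1 higher and 4 lower means in COLD in each cultivar. Of all detected genes 46.9% were lower in COLD in ERY and 50.04% in S.AND, so 5 loci say little about the list. None was past 2-fold in ERY and 1 was at least 2-fold lower in S.AND. OsbZIP23 (LOC_Os02g52780), an ABA-type activator, averaged 33.0 RPKM (CONTROL) and 21.6 RPKM (COLD) for ERY, and 35.7 and 15.6 RPKM for S.AND. The factor at LOC_Os06g10880 gave log2 ratios of -0.36 in ERY and -0.92 in S.AND. LOC_Os07g48660 reached 1.01 RPKM in S.AND COLD alone and is not counted.

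RAB16 and LEA genes encode dehydrins and related proteins that protect cells from drying. Of 5 listed, 4 passed, and all 4 had lower means in COLD in both cultivars, with 0 at least 2-fold lower in ERY and 3 in S.AND. The tapetum markers were lower in COLD too, and their part in the values of these genes and of the bZIP factors was not tested. LOC_Os11g26790, listed as RAB16A, averaged 27.9 RPKM (CONTROL) and 15.7 RPKM (COLD) for ERY, and 27.4 and 3.06 RPKM for S.AND. RAB16B (LOC_Os11g26780) gave log2 ratios of -0.85 in ERY and -2.21 in S.AND. RAB16D (LOC_Os11g26750) went the other way, with log2 ratios of 2.53 in ERY and 0.48 in S.AND. It reached 1 RPKM in ERY COLD alone, at 2.54 RPKM, and is not counted. Of all detected genes 46.9% were lower in COLD in ERY and 50.04% in S.AND. These genes neighbour each other and resemble each other, so the split of reads among them is uncertain.

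**Figure D5:**
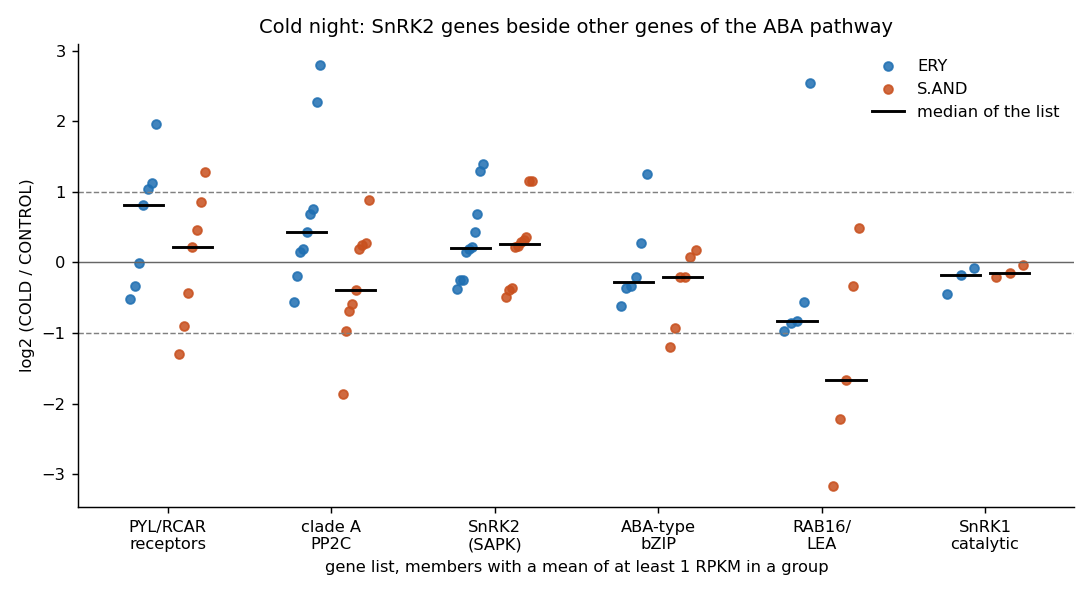
Log2 ratio of COLD to CONTROL for the detected members of each list, in ERY (blue) and S.AND (orange), with the median of each list as a black bar and dashed lines at 2-fold. The SnRK2 medians are 0.20 and 0.27, those of the clade A phosphatases 0.43 and -0.39 and those of the SnRK1 subunits -0.18 and -0.15, in ERY and S.AND. LOC_Os06g36670, LOC_Os07g48660 and RAB16D are drawn and enter the medians of their lists, although they reached 1 RPKM in 1 group alone. The receptor median in ERY is 0.81 as drawn and 0.40 without LOC_Os06g36670.

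The SnRK1 kinases, relatives that respond to sugar and energy supply, had lower means in COLD in both cultivars, as did the tapetum markers, whose part was not tested. The 3 catalytic subunits had 0 members at least 2-fold apart in either cultivar, beside the shares of all genes given above for the pathway lists. Of all detected genes 46.9% were lower in COLD in ERY and 50.04% in S.AND, so the sign of 3 loci says little about the list. SnRK1A (LOC_Os05g45420) averaged 69.4 RPKM (CONTROL) and 61.2 RPKM (COLD) for ERY, and 69.9 and 68.4 RPKM for S.AND. LOC_Os03g17980 gave log2 ratios of -0.45 for ERY and -0.21 for S.AND, and LOC_Os08g37800 gave -0.08 and -0.15. Their median log2 ratio was -0.18 in ERY and -0.15 in S.AND, whereas the SnRK2 medians were 0.20 and 0.27.

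The 3 genes whose 4 group means lay nearest to those of SAPK9 were LOC_Os03g55450, LOC_Os03g03150 and LOC_Os03g55320, at distances of 0.18, 0.21 and 0.21 on the log2 RPKM scale over the 4 groups. LOC_Os03g55450 averaged 26.6 RPKM (CONTROL) and 61.4 RPKM (COLD) for ERY, and 29.5 and 64.3 RPKM for S.AND. The study's annotation calls LOC_Os03g03150 a WD repeat protein gene, with 27.5 and 61.6 RPKM in ERY, and LOC_Os03g55320 a protein phosphatase 2C gene, with 30.3 and 70.0 RPKM in ERY. Such closeness over 4 means is a description of these columns.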

How the data were processed

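Single 50 bp reads of poly(A) RNA were mapped by the authors to the MSU 7.0 rice gene models with CLC Genomics Workbench 4.7.1. The deposited values are the authors' mean RPKM of each group of 3 samples, and hold 0 columns of values per sample. They sum to about 1000000 in each column, and the study states a normalization by total reads without further detail. The sources used here do not give how reads shared by similar genes were counted. The 4 columns of the authors' fold change and FDR from Baggerley's test were not used.

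From the means, log2 ratios were computed with no pseudocount and called at 2-fold. Genes counted as detected at 1 RPKM or more as the mean of any group. Shares of genes cover these, where a gene listed at 0 in 1 group of a pair counts as past the limit; medians and percentiles leave it out. Alternatives were RPKM + 1, columns rescaled to equal sums, centring on the median gene, limits of 1.5 and 3-fold, other filters, the family sum without its most abundant member and, chosen after seeing the data, scaling without the 10 most abundant genes and, for the pathway lists, 1 RPKM in at least 2 groups, which is the count given. The code was tested on simulated data. All members are named, as are up to 3 genes per pathway list with the largest absolute log2 ratio in a cultivar. Also named are the stamen marker, the tapetum markers, WDA1 and the 3 genes nearest to SAPK9. SAPK1 to SAPK10 occur in RefSeq's gene names on the chromosome of each locus (10 of 10); 0 table identifiers matched RefSeq directly, so no coordinates or sequences are printed, and other names follow general knowledge. Members and lists were chosen with earlier results of these data known. Python 3.11.15, NumPy 2.4.6, pandas 2.3.3 and matplotlib 3.10.9 were used.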

Additional observations from a re-analysis of the deposited data

How the results depend on the processing

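No member changed the sign of its log2 ratio or its side of the 2-fold limit in any of the 4 comparisons under RPKM + 1, equal column sums, centring on the median gene or scaling without the 10 most abundant genes. The widest shift was that of SAPK3 between the cultivars in COLD, from -0.91 to -0.80 with RPKM + 1. The counts depend on the limit: at 3-fold, 0 members remained apart between COLD and CONTROL in ERY and 0 in S.AND. At 1.5-fold the count between COLD and CONTROL went from 2 to 3 in ERY, where SAPK2 (1.62) entered, and stayed at 2 in S.AND. SAPK2 was thus past 1.5-fold in both cultivars. Between the cultivars the count at 1.5-fold went from 0 to 1 in CONTROL and from 0 to 2 in COLD. The share of all genes past 2-fold either way, which was 16.3% in ERY and 15.7% in S.AND between COLD and CONTROL, was 10.6% and 10.3% among genes reaching 10 RPKM in a group. Between the cultivars it was 19.5% in CONTROL and 15.1% in COLD, and 10.8% and 7.67% with that filter. With no filter, over genes with both means above 0, each share was larger. It was 23.55% in ERY and 22.8% in S.AND between COLD and CONTROL, and 28.0% in CONTROL and 23.1% in COLD between the cultivars. No paired analysis was possible because the table holds group means only, and for the same reason no sample could be left out. Over pathway loci at or above 1 RPKM in any group, the counts past 2-fold were 3 higher in ERY and 1 higher and 1 lower in S.AND for the receptors, 1 higher in ERY and 1 lower in S.AND for the bZIP factors, and 1 higher in ERY and 3 lower in S.AND for the RAB16 and LEA genes.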
